A study of Homo sapiens with 6 samples.

Results

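Interferon-stimulated genes are the genes whose transcription rises when a cell senses interferon. A set of 35 of them, chosen by name, was followed through gene counts from the human cell line MDA-MB-231, which was established from a triple-negative breast cancer. All 35 were found among the 58735 genes of the count table, each as 1 row. Cells of 3 libraries overexpressed DNAJC12, a J-domain co-chaperone, from a transfected vector, and cells of the other 3 received the empty vector. No interferon treatment is named for either group, and the empty vector libraries are taken here as the basal level. No library is from untransfected cells, so any effect of the vector's delivery is part of that level and was not tested. The labels used here name neither the vector's promoter nor separate cultures, and do not say whether cells were clones or pools. The p-values measure only the spread between these libraries, and that spread may be technical.

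Type I and type III interferons bind cell surface receptors whose kinases phosphorylate transcription factors such as STAT2. A complex that holds STAT2 and IRF9 binds the interferon-stimulated response element (ISRE) in the promoters of target genes. The interferon gamma receptor acts mainly through another element, the gamma-activated site (GAS). The proteins made include sensors of viral RNA, inhibitors of viral translation and entry, and the ubiquitin-like modifier ISG15. Many tumour lines carry a basal level of such transcripts with no interferon added.

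Promoter sequence showed what most of these genes share. RefSeq promoter windows (GRCh38.p14, 250 bases before to 50 after a transcript start, 300 in all) were held for 28 of the 35, with DDX58, which encodes the RNA sensor RIG-I, found under its current symbol RIGI. The ISRE core, searched as GAAA, any 2 bases and GAAA on both strands, was present in at least 1 window of 20 of these 28 genes (71.4%), against 4.38% of all 27305 genes in the promoter table. The GAS letters TTCNNNGAA, the same on both strands, were present in 7 of 28 (25%), against 9.38% of all genes. A match is a run of letters and does not show that a factor was bound. The lack of a match does not show that a gene has no such element, because GAAA runs at other spacings were not searched. In all 4 genes that held both motifs (BST2, IFI27, MX1 and IFITM1) a GAS match shared bases with an ISRE match.

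The 170 bases before the start are shown for 6 genes, in the direction of the gene, with each ISRE core match in capitals. ISG15, BST2 and IFITM3 had the highest levels of the set, IFIT1 and IFI6 carry matches described below, and XAF1 had the largest fold change and holds no match in this window. They lie at chr1:1013327-1013496 (plus strand), chr19:17405631-17405800 (minus), chr11:320861-321030 (minus), chr10:89392453-89392622 (plus), chr1:27672193-27672362 (minus) and chr17:6755876-6756045 (plus).
ISG15: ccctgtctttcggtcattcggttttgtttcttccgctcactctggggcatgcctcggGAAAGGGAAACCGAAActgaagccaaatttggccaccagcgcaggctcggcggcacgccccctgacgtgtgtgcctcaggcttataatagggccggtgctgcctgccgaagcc
BST2: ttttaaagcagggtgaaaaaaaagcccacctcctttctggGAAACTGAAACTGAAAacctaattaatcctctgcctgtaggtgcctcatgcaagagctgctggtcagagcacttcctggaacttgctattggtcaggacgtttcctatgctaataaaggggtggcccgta
IFITM3: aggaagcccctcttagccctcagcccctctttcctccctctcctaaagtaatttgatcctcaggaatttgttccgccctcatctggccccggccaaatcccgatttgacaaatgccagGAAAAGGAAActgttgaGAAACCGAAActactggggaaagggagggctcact
IFIT1: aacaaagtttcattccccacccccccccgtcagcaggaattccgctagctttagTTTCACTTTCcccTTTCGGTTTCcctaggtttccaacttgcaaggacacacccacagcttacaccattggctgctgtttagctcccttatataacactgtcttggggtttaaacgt
IFI6: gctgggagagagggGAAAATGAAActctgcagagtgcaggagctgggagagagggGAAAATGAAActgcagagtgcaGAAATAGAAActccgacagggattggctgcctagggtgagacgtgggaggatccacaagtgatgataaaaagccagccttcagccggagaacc
XAF1: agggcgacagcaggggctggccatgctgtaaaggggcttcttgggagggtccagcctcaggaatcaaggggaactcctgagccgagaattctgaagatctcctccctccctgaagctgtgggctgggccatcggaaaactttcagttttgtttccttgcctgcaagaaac

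In ISG15 and BST2, 2 overlapping matches run together, starting 113 and 107 bases before the start in ISG15 and 130 and 124 bases before it in BST2. IFIT1 carries 2 matches on the other strand, at 116 and 103 bases, and IFI6 carries 3, at 156, 115 and 93 bases. PARP9 and DTX3L, which are transcribed away from each other, share 1 match, GAAACTGAAA on the plus strand at chr3:122564332-122564341. The transcription factor gene IRF1 held no ISRE core match and 1 GAS match, TTCCCCGAA, 124 bases before its start. STAT2, DDX58, CMPK2, SAMD9L and XAF1 held neither motif, as searched, in their windows.

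The libraries held 17967283 to 18887497 counts, and 14520 genes had enough counts to be tested. Counts of DNAJC12 were 522, 523 and 492 in the overexpression libraries, and 1, 0 and 0 in the empty vector ones. Overexpression replicate 2 stood apart with the GC content of transcripts: its median log2 deviation from its group's mean was -0.73 over the 20% of tested genes lowest in GC content and 0.49 over the highest 20%. Overexpression replicate 1 deviated the other way, by 0.60 and -0.39, and replicate 3 by 0.14 and -0.095. A gene's deviations within a group sum to 0, so the opposite sign is partly fixed by replicate 2. Replicates 1 and 3 still differed from each other with GC content, so a fit that leaves out replicate 2 is not free of a GC trend. Results are given with a GC correction and without both libraries numbered 2, and those called without overexpression replicate 2 alone are named. The line's mesenchymal markers VIM, CD44, AXL, CAV1, MSN, FOSL1 and ZEB1 were read in every library, while ESR1, PGR, PTPRC, CD3E and TYROBP had at most 3 counts in any. Of 6 luminal and epithelial markers, 4 were read in all libraries of each group, GATA3 at 68 to 86 counts. The 6 summed to 70.7 to 127.5 CPM (the count of a gene scaled to the TMM library size) with DNAJC12 and 102.6 to 128.9 CPM with the empty vector. Of 8 immune markers, 4 were read in all libraries of each group, and the 8 summed to 10.2 to 22.4 and 14.8 to 17.9 CPM. Of 7 endothelial and fibroblast markers, 2 were testable. Their summed level was 9.19 to 12.8 CPM with DNAJC12 and 25.9 to 28.9 CPM with the empty vector, mostly through PECAM1. The adhesion molecule PECAM1 had 5.51, 4.43 and 3.81 CPM in overexpression replicates against 22.7, 15.1 and 17 CPM, and fell by 1.99 on the log2 scale (edgeR adjusted p 0.0125). Its adjusted p was 0.133 without overexpression replicate 3, 0.101 without empty vector replicate 1, 0.0883 without replicate 3 and 0.113 with limma on log2(FPKM + 1) without a filter, in a range over all alternatives of 3.9e-12 to 0.133. VWF and CDH5 had at most 4 counts in any library. The part of these markers in the results was not tested.

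Basal expression of the set was broad, from among the most abundant transcripts to barely detected ones. Levels between genes are compared per kilobase, as the authors' FPKM, in the 3 empty vector libraries. ISG15 led at 775 ± 120 FPKM (SD, n = 3), higher than 99.7% of tested genes. IFITM3 followed at 318 ± 18.98 FPKM, BST2 at 182 ± 9.60 and OASL at 94.3 ± 9.11, and these 4 did not overlap one another in any library. IFIT3 (66.8 ± 23.2), IFITM2 (49.0 ± 3.24), IFI6 (42.1 ± 10.9), IFITM1 (41.4 ± 0.80) and IFI27 (34.5 ± 8.08 FPKM) came next, and each overlapped its neighbours in this order, OASL and IFIT3 included. At the other end, XAF1 had 0.0755 ± 0.0403 FPKM, from 8, 5 and 15 counts. Of the 35, 16 had at least 10 FPKM, 11 had 1 to 10 and 8 had less than 1.

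The median member had 7.02 FPKM, against 3.16 for all tested genes, and 23 of 35 lay above that median of tested genes. All 35 passed the filter on low counts. The authors' gene length is the union of all annotated exons, at 13047 bases longest for MX2, and counts exons a cell may not use. ISG15, IFITM3 and OASL together made up 51.9% of the set's summed CPM in the empty vector group.

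**Figure D1:**
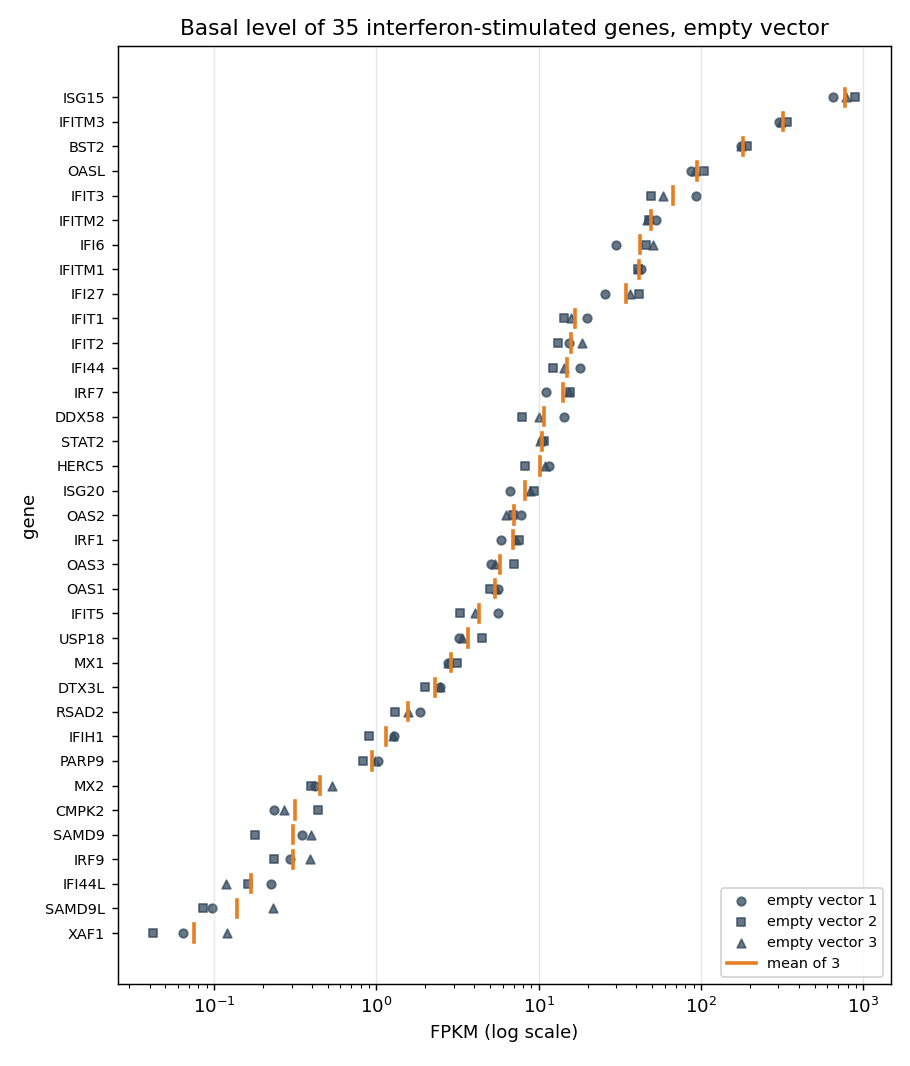
FPKM of the 35 genes on a log scale in each empty vector library (grey symbols) with the mean of 3 (orange bar), ordered by mean. ISG15, IFITM3 and BST2 stand clear at the top, with means from 182 to 775 FPKM, and 8 genes lie under 1 FPKM.

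The interferon transcripts examined were absent or near absent at this depth, and other interferon genes, such as the remaining IFNA genes, were not examined. IFNB1, IFNG, IFNA1, IFNA2, IFNE, IFNK and IFNW1 had 0 counts in all 6 libraries, which allows up to 3 counts in each, or 0.150 to 0.190 CPM by counting error alone. IFNL1, a type III interferon, was read in every library, at 9, 2 and 14 counts with DNAJC12 and 10, 16 and 12 with the empty vector, and the groups overlapped. IFNL2 and IFNL3 had at most 3 counts in any library.

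Overexpression of DNAJC12 did not give a call for any of the 35 genes, as measured over all 6 libraries. With the quasi-likelihood test of edgeR, adjusted over all tested genes by Benjamini-Hochberg, 0 of 35 had an adjusted p under 0.05, with values from 0.115 (XAF1) to 0.999 (OAS3). Over all genes, 1.25% were called, 0.585% higher and 0.661% lower. The median log2 fold change of the 35 was 0.10, against 0.05 for all tested genes, with 22 members above 0 and 13 below. Without adjustment, 8 of 35 (22.9%) had a p under 0.05, against 14.1% of tested genes, and the DESeq2 Wald test also called 0 of 35, against 3.89% of tested genes. Without the filter on low counts, XAF1 was called higher and OASL lower, against 2.52% of genes. In 9 of 35 (25.7%) the 3 libraries of a group all lay on one side of the other group, against 20.1% of all tested genes. Of the 9, MX1, MX2, STAT2, IRF1, IRF7, XAF1 and IFITM1 were higher with DNAJC12 and OASL and USP18 lower, against 9.26% of tested genes higher and 10.8% lower. A missed threshold does not show that a gene was unaffected. The 95% interval of the fold change lay within 2-fold either way for 14 of the 35 genes.

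The spread within the overexpression group followed the GC content of the transcripts. Replicate 2 of that group lay below replicates 1 and 3 in all 13 members with a GC content under 45%, and was the lowest of all 6 libraries in 11 of them. In 18 of the 22 members of higher GC content it was the highest overexpression library. The median log2 gap of replicate 2 to the mean of replicates 1 and 3 was -1.20 in the low-GC members (from -2.19 in SAMD9 to -0.65 in PARP9) and 0.56 in the others. Across the 35 members, Pearson's r between GC content and this gap was 0.89, and it was 0.77 across 14503 tested genes. This is a description over genes that share the same libraries. Empty vector replicate 2 went the same way by less, with median gaps of -0.47 and 0.15. The 45% limit was set after the values were seen.

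**Figure D2:**
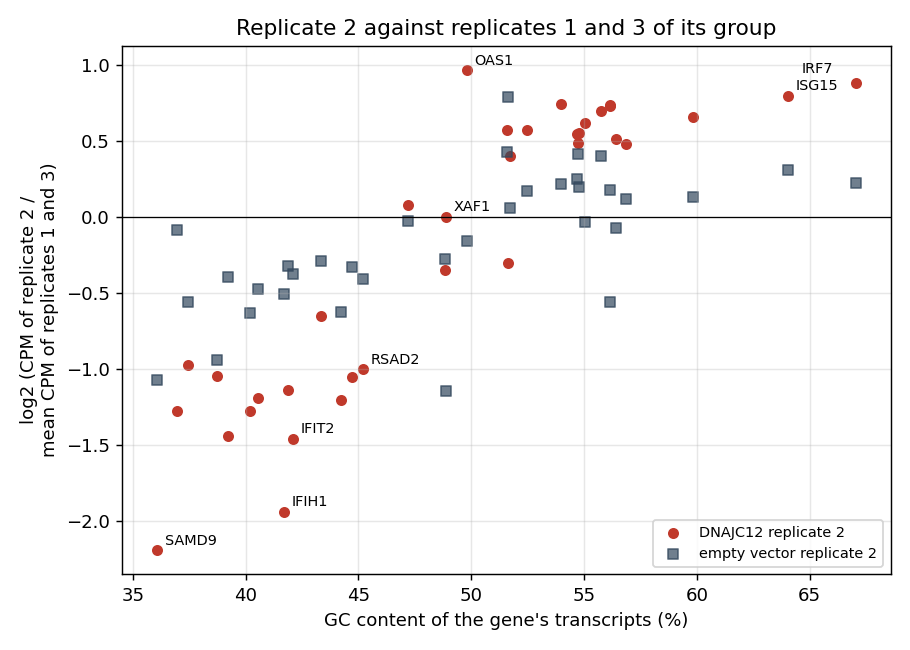
Log2 ratio of replicate 2 to the mean of replicates 1 and 3 of its own group, against the GC content of the gene's transcripts, for the 35 genes. Red points are the DNAJC12 group and grey squares the empty vector group, and the red points run from -2.19 in SAMD9 at low GC content up to 0.97 in OAS1.

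Fits with a GC correction or with fewer libraries gave calls for some members. With a correction of each library for its trend with GC content, 9 members were called higher and 5 lower, 40% of the set, against 20% of all tested genes (10.2% higher and 9.77% lower). Without both libraries numbered 2, 5 were higher and 3 lower, 22.9% of the set against 18.7% of tested genes (10.3% higher and 8.41% lower). Without overexpression replicate 2 alone, 10 were called (28.6%), against 22.5% of tested genes. These were XAF1 (log2 fold change 1.75), SAMD9L (1.46), DTX3L (1.12), IFIH1 (1.12), MX2 (0.88) and RSAD2 (0.71), all higher, and OASL (-1.11), OAS1 (-0.74), ISG15 (-0.62) and ISG20 (-0.60), all lower. MX2, XAF1, DTX3L, ISG15 and OASL were called both with GC correction and without both libraries numbered 2, with the same direction. Their edgeR adjusted p ran from 0.00139 (OASL) to 0.0431 (ISG15) with GC correction. It ran from 1.65e-06 (OASL) to 0.045 (MX2) without both libraries numbered 2. Those fits have libraries in common, and the share of all tested genes called in both was not counted. Each of these 3 fits called members in both directions, and the values below are given gene by gene. Log2 fold changes are from all 6 libraries as deposited, with the corrected value named as such.

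**Figure D3:**
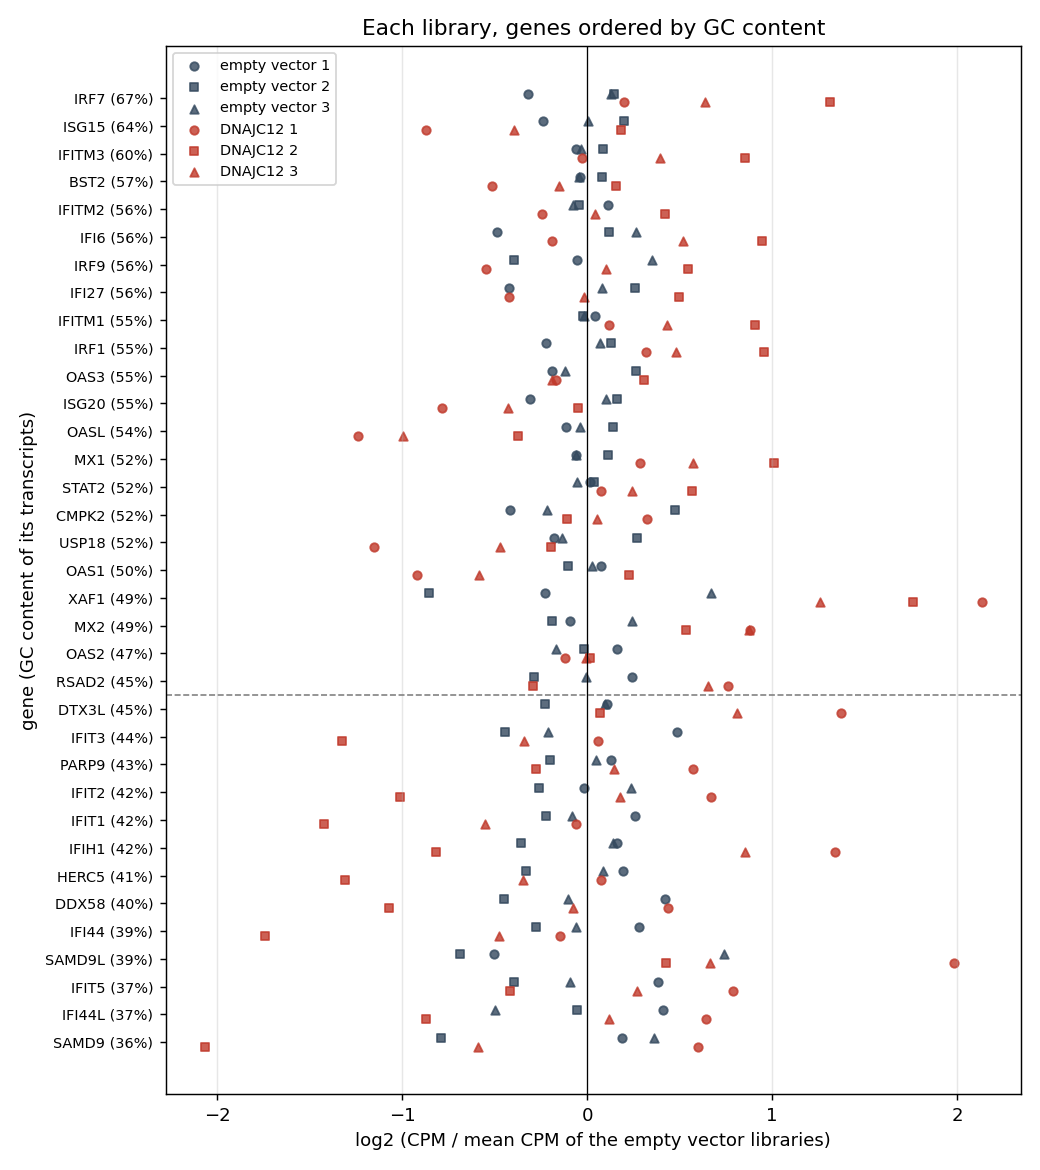
Log2 ratio of each library's CPM to the mean of the empty vector libraries for the 35 genes, ordered by GC content (in brackets), with the dashed line at 45%. Red symbols are the DNAJC12 libraries and grey the empty vector libraries. Below the line the red square, replicate 2, lies to the left of the other red symbols in all 13 genes.

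Among the transcription factor genes of the set, IRF7, IRF1 and STAT2 were read at moderate levels and lay higher with DNAJC12. IRF7, which drives interferon genes after infection, had 42.5, 92.0 and 57.6 CPM in overexpression replicates 1 to 3 and 29.7, 40.9 and 40.5 CPM with the empty vector. All 3 overexpression libraries lay above the empty vector libraries, with replicate 2 farthest, at a log2 fold change of 0.79 ± 0.30 SE. IRF1, an activator in both the type I and the gamma response, had 67.7, 105 and 75.7 CPM against 46.5, 59.3 and 56.9, also without overlap, and a log2 fold change of 0.61 ± 0.23 SE. C5orf56, on the opposite strand, overlaps 22% of the exon bases of IRF1. It had 430 counts over all 6 libraries, against 7467 for IRF1. STAT2, a subunit of the ISRE-binding complex, had 67.9, 95.5 and 76.3 CPM against 65.2, 66.3 and 62.0. Its groups were separated by a small gap, at 0.31 ± 0.20 SE. With GC correction these 3 genes were called higher, at log2 fold changes of 0.73 (IRF7), 0.66 (IRF1) and 0.34 (STAT2), and none of them was called without both libraries numbered 2. Without overexpression replicate 2 alone they were not called either, at 0.43 (IRF7), 0.40 (IRF1) and 0.16 (STAT2). IRF9, the DNA-binding subunit, was low, at 0.80 to 1.71 CPM in all libraries, and 48.4% of its exon bases overlap another annotated gene on the same strand, so its count is uncertain.

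The cytosolic RNA sensors both had low-GC transcripts and a low value in overexpression replicate 2. IFIH1, which encodes the sensor MDA5 of long double-stranded RNA, had 14.98, 3.35 and 10.7 CPM with DNAJC12 and 6.600, 4.62 and 6.50 CPM with the empty vector. Replicates 1 and 3 lay above and replicate 2 below every empty vector library, and the log2 fold change was 0.71 ± 0.47 SE. It was called higher without both libraries numbered 2 (log2 fold change 0.96) and not with GC correction (0.46). DDX58 had 63.5, 22.3 and 44.6 CPM against 62.8, 34.4 and 43.7, with the same order of replicates in both groups.

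The 4 IFIT genes, whose proteins bind viral RNA and block its translation, lie in a row on chromosome 10 between 89283694 and 89421001 (GRCh38). IFIT1 had 74.2, 28.9 and 52.7 CPM with DNAJC12 and 92.6, 66.2 and 73.2 CPM with the empty vector, a log2 fold change of -0.57 ± 0.32 SE. Replicates 2 and 3 lay below every empty vector library and replicate 1 among them. IFIT3, the partner of IFIT1, had 185, 70.8 and 140.3 CPM against 249, 131 and 154, and its groups overlapped (-0.43 ± 0.36 SE). With GC correction IFIT1 was called lower (-0.77) and IFIT3 was not (-0.55). IFIT2 had 103, 32.2 and 73.4 CPM against 64.1, 54.2 and 76.4, and IFIT5 had 30.1, 13.0 and 21.0 against 22.7, 13.2 and 16.3. In both, overexpression replicate 2 was the lowest of all 6 libraries and replicate 1 the highest.

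OASL stood apart from the OAS genes, which make the second messenger that activates RNase L. OASL, a relative without that activity that aids RIG-I signalling, had 141, 258 and 167 CPM with DNAJC12 and 308, 367 and 325 CPM with the empty vector. Every overexpression library lay below every empty vector library, replicate 2 closest, at -0.82 ± 0.25 SE on the log2 scale (edgeR adjusted p 0.172). It was called lower with GC correction (-0.79) and without both libraries numbered 2 (-1.05). OAS1 had 14.1, 31.2 and 17.8 CPM against 28.1, 24.8 and 27.2, with replicates 1 and 3 below and replicate 2 above the empty vector libraries (-0.34 ± 0.31 SE). It was called lower without both libraries numbered 2 (-0.80) and not with GC correction (-0.33). OAS2 and OAS3 overlapped between the groups, at means of 43.1 ± 2.15 and 48.2 ± 9.81 CPM with DNAJC12 and 44.2 ± 5.12 and 48.1 ± 8.43 with the empty vector (SD, n = 3). OAS1, OAS3 and OAS2 are neighbours on chromosome 12 from 112906777 to 113011723, and OASL lies on the same chromosome from 121019111 to 121039242.

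The antiviral GTPases MX1 and MX2, neighbours on chromosome 21 from 41361943 to 41459214, lay higher with DNAJC12 in every library. MX1, which acts on viral nucleoproteins, had 30.4, 50.2 and 37.1 CPM against 23.9, 26.9 and 23.9. Its log2 fold change was 0.65 ± 0.24 SE. MX2, an inhibitor of retroviral nuclear entry, had 10.9, 8.54 and 10.8 CPM against 5.53, 5.17 and 6.98, with no overlap and little spread within either group (0.77 ± 0.27 SE). Both were called higher with GC correction (0.69 and 0.77), and MX2 also without both libraries numbered 2 (0.78), where MX1 was not (0.49).

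The membrane proteins that block entry or release of viruses were among the 8 most abundant members per kilobase. IFITM3 had 423, 781 and 567 CPM with DNAJC12 and 414, 459 and 422 CPM with the empty vector. Replicates 2 and 3 lay above every empty vector library and replicate 1 among them, at a log2 fold change of 0.45 ± 0.24 SE. IFITM1 had 48.9, 84.3 and 60.8 CPM against 46.3, 44.3 and 44.4, without overlap (0.52 ± 0.24 SE), and IFITM2 had 64.3, 102 and 78.3 against 82.2, 73.7 and 72.3, with overlap (0.10 ± 0.22 SE). With GC correction IFITM1 (0.56) and IFITM3 (0.50) were called higher and IFITM2 was not (0.16), and without both libraries numbered 2 none of the 3 was. IFITM1, IFITM2 and IFITM3 are related genes side by side on chromosome 11, so reads may have been split among them. Their sequences were not compared. The annotated exons of IFITM1 and IFITM2 overlap in 351 bases. IFITM3 also shares 21.3% of its exon bases with AC136475.5 on the opposite strand, which had 4 counts over all 6 libraries. BST2, the tetherin that holds budding virus to the cell, had 143, 228 and 184 CPM against 199, 216 and 199, with replicates 1 and 3 below and replicate 2 above the empty vector libraries (-0.14 ± 0.22 SE).

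ISG15, HERC5 and USP18 belong to the ISG15 system. ISG15, a ubiquitin-like protein conjugated to other proteins, had 400.3, 832 and 556 CPM with DNAJC12 and 621, 841 and 736 CPM with the empty vector. Replicates 1 and 3 lay below every empty vector library and replicate 2 within their range, at a log2 fold change of -0.30 ± 0.28 SE. ISG15 was called lower with GC correction (-0.30) and without both libraries numbered 2 (-0.52). HERC5, the main ligase for ISG15, had 51.7, 19.8 and 38.6 CPM against 56.0, 39.0 and 52.1, with overlap (-0.42 ± 0.33 SE), and was called lower with GC correction (-0.64) and not without both libraries numbered 2 (-0.27). USP18, which removes ISG15 and also restrains the type I receptor, had 3.56, 6.89 and 5.69 CPM against 6.97, 9.51 and 7.19. Its libraries did not overlap, by a narrow gap, and it was called in neither of those fits.

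DTX3L and PARP9, partners that join a ubiquitin ligase to an ADP-ribosyltransferase, start 1 beside the other on chromosome 3. DTX3L had 35.4, 14.3 and 23.9 CPM with DNAJC12 and 14.7, 11.6 and 14.6 CPM with the empty vector. Replicates 1 and 3 lay above every empty vector library and replicate 2 within their range, at a log2 fold change of 0.85 ± 0.33 SE, 0.73 with GC correction and 1.01 without both libraries numbered 2, both called. PARP9 had 12.6, 7.02 and 9.40 CPM against 9.28, 7.398 and 8.79, with overlap. The genes overlap in 217 exon bases on opposite strands, and no source used here states the strand setting of the counting.

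XAF1, an interferon-induced antagonist of the apoptosis inhibitor XIAP, had the largest fold change of the set and the lowest basal level. It had 44, 27 and 23 counts (2.20, 1.71 and 1.20 CPM) with DNAJC12 and 8, 5 and 15 counts (0.43, 0.28 and 0.80 CPM) with the empty vector. All overexpression libraries lay above all empty vector libraries, and the log2 fold change was 1.75 ± 0.46 SE, with a 95% interval of 0.71 to 2.78 (edgeR adjusted p 0.115). XAF1 was called higher with GC correction (1.74) and without both libraries numbered 2 (1.46). An antisense gene overlaps 38.3% of its exon bases and had 0 counts in every library.

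SAMD9L and SAMD9, neighbouring translation inhibitors on chromosome 7, were both low and variable. SAMD9L had 3.91, 1.33 and 1.57 CPM against 0.70, 0.61 and 1.65, with overlap, and a log2 fold change of 1.20 ± 0.54 SE, and was called higher without both libraries numbered 2 (1.21) and not with GC correction (0.92). SAMD9 had 3.21, 0.51 and 1.41 CPM against 2.42, 1.22 and 2.72. IFI44 had 27.6, 9.10 and 21.9 CPM against 37.0, 25.1 and 29.1, with overlap, and a log2 fold change of -0.64 ± 0.37 SE. It was called lower with GC correction (-0.91) and not without both libraries numbered 2 (-0.43). IFI6, a mitochondrial and endoplasmic reticulum protein with antiapoptotic activity, had 32.1, 70.6 and 52.5 CPM against 26.1, 39.8 and 44.0, with overlap (0.50 ± 0.32 SE), and was called in neither of those fits.

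For 14 members no fold change over all 6 libraries is given by name. Over all 6 libraries these had log2 fold changes from -0.56 to 0.45, 9 above 0 and 5 below, and edgeR adjusted p of at least 0.479. They are IFIT2, IFIT5, OAS2, OAS3, DDX58, IRF9, USP18, PARP9 and SAMD9, given above, with IFI27, IFI44L, ISG20, RSAD2 and CMPK2. Among these, ISG20, an exonuclease, had a mean of 46.8 ± 11.9 CPM with DNAJC12 and 61.3 ± 10.3 CPM with the empty vector, and IFI27, a mitochondrial protein, 151 ± 48.3 and 144 ± 33.0 CPM (SD, n = 3). RSAD2, the antiviral enzyme viperin, had 10.4 ± 3.64 and 7.66 ± 1.39 CPM. CMPK2, its neighbour on chromosome 2 and a nucleotide kinase, had 1.46 ± 0.22 and 1.36 ± 0.47 CPM. IFI44L, the neighbour of IFI44, had 1.84 ± 0.88 and 1.73 ± 0.54 CPM. As given above, RSAD2 was called higher and ISG20 lower without overexpression replicate 2 alone.

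**Figure D4:**
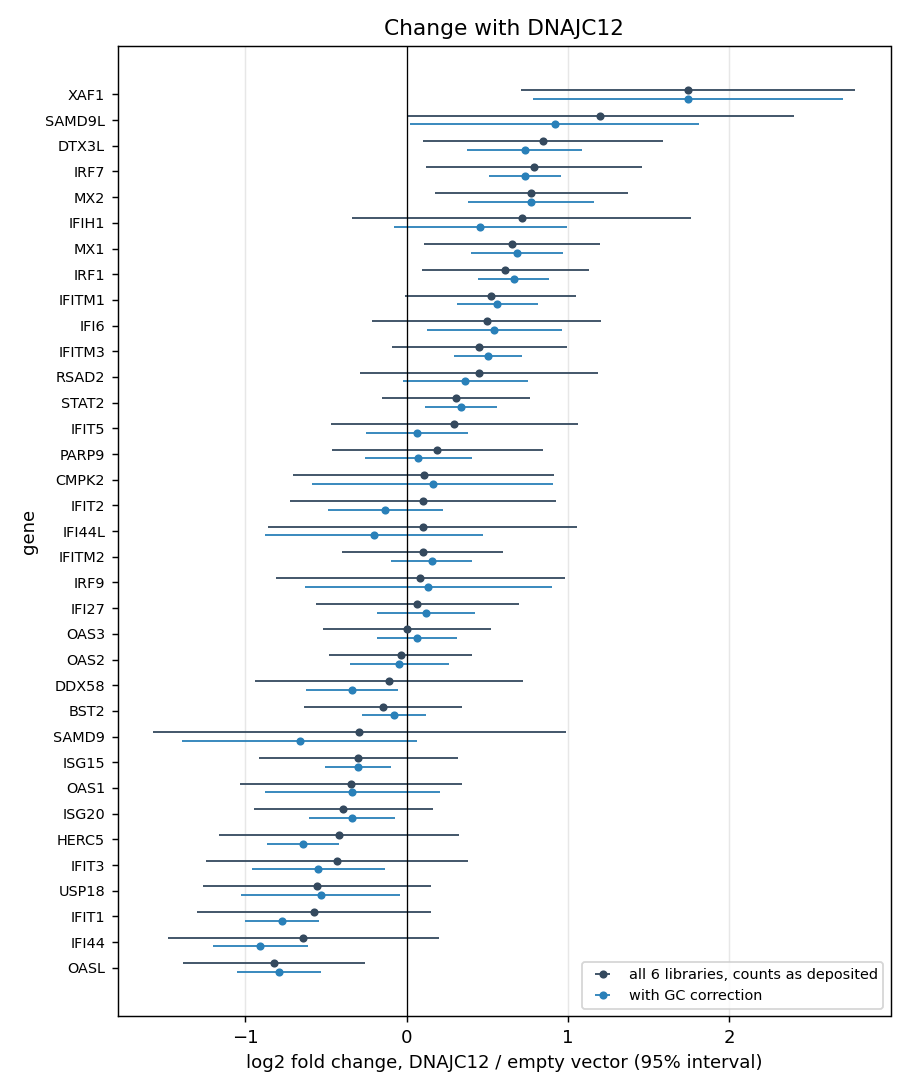
Log2 fold change of each of the 35 genes, DNAJC12 against empty vector, with 95% intervals, from counts as deposited (dark) and with GC correction (blue). XAF1 is highest at 1.75 and OASL lowest at -0.82, and the corrected interval is the narrower for each gene.

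The rest of the pathway was examined in lists taken by function. For comparison, edgeR called 1.25% of all tested genes over all 6 libraries, and 14.1% had p below 0.05 before adjustment. DESeq2 called 3.89% of genes, the fit with GC correction 20%, and the fit without both libraries numbered 2 18.7%. Whether any of these lists departed from those shares was not tested. Of 19 interferon, receptor and kinase genes, 9 were tested and 0 called, with 1 at an unadjusted p under 0.05, a median log2 fold change of -0.15 and 0 called by the DESeq2 Wald test. With GC correction 0 of the 9 were called higher and 2 lower, and without both libraries numbered 2, 2 were higher and 1 lower. The most abundant per kilobase were IFNGR2, a chain of the gamma receptor (24.3 FPKM with the empty vector), at 72.5 ± 4.66 CPM with the empty vector and 77.8 ± 12.8 CPM with DNAJC12, and the kinase TYK2 (14.9 FPKM) at 101 ± 8.22 and 91.2 ± 32.8 CPM (SD, n = 3). Of 19 genes of nucleic acid sensing and interferon induction, 17 were tested and 0 called, with 3 at an unadjusted p under 0.05, a median of 0.07 and 0 called by DESeq2. With GC correction 3 were called higher and 2 lower, and without both libraries numbered 2, 1 was higher and 0 lower. The most abundant per kilobase were IRF3, the factor that starts interferon transcription (36.4 FPKM), at 139 ± 11.3 and 129.0 ± 45.2 CPM, and its kinase IKBKE (21.8 FPKM) at 83.1 ± 14.8 and 95.02 ± 32.5 CPM. Of 11 genes that restrain the signal, all were tested and 0 called, with 2 at an unadjusted p under 0.05, a median of 0.07 and 1 called lower by DESeq2. With GC correction, and also without both libraries numbered 2, 2 were called higher and 1 lower. The phosphatase PTPN1 had 173 ± 12.8 and 195 ± 22.9 CPM and the feedback inhibitor SOCS3 115 ± 22.7 and 107 ± 25.7 CPM.

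Among 50 other interferon-stimulated genes, 48 were tested, 2 were called higher and 0 lower, against 0.585% and 0.661% of all tested genes, and the median log2 fold change was 0.04. With GC correction 9 were called higher and 2 lower, against 10.2% and 9.77% of all tested genes. Without both libraries numbered 2, 10 were higher and 1 lower, against 10.3% and 8.41%. WARS, the cytosolic tryptophanyl-tRNA synthetase, which is induced by interferon gamma and is also a target of ATF4, rose from 199, 189 and 181 to 528, 695 and 589.8 CPM, a log2 fold change of 1.67 ± 0.20 SE (edgeR adjusted p 0.00553). LAMP3, a lysosomal membrane protein also induced in the unfolded protein response, rose from 0.97, 1.502 and 1.23 to 6.56, 4.93 and 9.19 CPM, a log2 fold change of 2.48 ± 0.35 SE (edgeR adjusted p 0.0117). WARS missed the threshold without empty vector replicate 1 (edgeR adjusted p 0.0590) or 3 (0.0648), in a range over all alternatives of 3.0e-16 to 0.0648. LAMP3 missed it when overexpression replicate 3 was dropped (0.0875) and when empty vector replicate 1, 2 or 3 was (0.108, 0.0592 and 0.0955), and with limma on log2(FPKM + 1) without a filter (0.136), in a range of 8.7e-12 to 0.136. Both kept their direction in every alternative.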

How the data were processed

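The deposited tables hold, per the file headers, the authors' raw count and FPKM of each gene in 6 libraries. HISAT2 2.0.5 and hg19 are named per the submitters' processing notes. All 58735 identifiers, symbols and positions equal GENCODE 29 on GRCh38, so coordinates are GRCh38. No source used here states the counting program or its strandedness. Every deposited gene length equals the union of the gene's exons.

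R 4.3.3 and edgeR 4.0.16 were used for the quasi-likelihood test of the counts, with TMM, filterByExpr (minimum count 10, minimum total 15) and Benjamini-Hochberg adjustment over 14520 genes at 0.05. Genes not tested held 0.129% of counts. SE is the fold change divided by the root of F. CPM uses TMM library sizes. GC content is that of all GENCODE 29 transcripts of a gene. The correction is an offset from a loess trend of log2 CPM (prior count 2, span 0.3) per library. Alternatives were DESeq2 1.42.0 (size factors, Wald test), other filters, limma 3.58.1 on log2 FPKM, a replicate block, GC correction, and leaving out libraries. The steps were tested on simulated data. Named with values by library were members called with GC correction or without both libraries numbered 2 and the 8 most abundant, some others being added after their values were seen. From other lists came up to 4 called genes or the 2 most abundant. Members and lists were chosen with earlier results of these data known. A gene that met this rule is not reported here.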

Additional observations from a re-analysis of the deposited data

How the results depend on the processing

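Members called higher and lower numbered 0 and 0 over all 6 libraries, 1 and 1 with no filter, 7 and 3 with the replicate block, 9 and 5 with GC correction, 10 and 7 with both, and 5 and 3 without both libraries numbered 2. All tested genes were called in 13.3% with the block and 22.9% with the block and GC correction. ISG15, called with GC correction alone, was not called with the block and GC correction together. Leaving out 1 library gave 0 to 6 higher and 0 to 4 lower, the top of each range without overexpression replicate 2. Over all genes, 85 were higher and 96 lower. The DESeq2 Wald test gave 289 and 276, no filter 366 and 322, limma on log2(FPKM + 1) without a filter 21 and 18, the replicate block 1011 and 926, GC correction 1484 and 1419, both 1694 and 1631, and the fit without both libraries numbered 2 gave 1514 and 1240. Leaving out 1 library gave 15 to 1806 higher and 6 to 1560 lower. The cause was not tested. The labels do not say whether same-numbered libraries were paired or shared a batch, and this was not tested. Deviations of same-numbered libraries from the group means correlated at 0.448, 0.585 and 0.0335 for numbers 1 to 3. Between unlike numbers the correlations ran from -0.583 to 0.224.

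Of the genes given a fold change by name, IFITM2 changed sign without both libraries numbered 2 (-0.13) and ran from -0.095 to 0.24 on leaving out 1 library, negative without overexpression replicate 2, and BST2 ran from -0.32 to 0.0011, positive without overexpression replicate 1. The others kept their direction in every alternative in which they were tested. The median log2 fold change of the 35 stayed between 0.0011 and 0.20. FPKM filters left 29 of the 35 members. Genes with few counts, such as XAF1, SAMD9L and IRF9, are limited by depth.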
